A study of Rattus norvegicus with 31 samples.

Results

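Nefh, Nefl, Nefm, Prph, Sox10 and S100b were followed through the left ventricle of the rat heart. These 6 genes encode the neurofilament chains, a further neuronal filament protein and a pair of proteins used to mark Schwann cells, and they were looked up by symbol. They were 6 of the 46063 assembled genes, that is, genes put together from the libraries' own reads, and 5 of the 19100 genes of the RefSeq table, where Nefl had no row. The set was chosen with the measured SHR and BN-Lx levels known, so those levels are given here as a description and without a test. The question was whether Nefh varied with the other nerve genes or by itself.

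The series holds 31 samples of ribosomal RNA-depleted total RNA from male rats that had received no treatment, alcohol or drug. The progenitors of the HXB/BXH recombinant inbred panel were SHR/OlaIpcv, an inbred rat with spontaneous hypertension (4 replicate numbers), and BN-Lx/Cub, an inbred Brown Norway rat (4 replicates). The panel itself gave 12 HXB strains (suffix Ipcv) and 9 BXH strains (suffix Cub), each an inbred mosaic of both progenitors. Each strain had 1 library here, so that the strain was the replicate and the spread within a strain was unknown. Progenitor libraries were compared within sequencing batch 1. The strains came from batches 2 (6 strains) and 3 (15 strains), and batch was a term in the fits over strains. All values are log2 levels as deposited, on which a difference of 1 is a 2-fold change. Levels were not scaled to gene length. Ranks of a gene by level and sums over marker genes therefore also depend on gene length, and levels of different genes are not otherwise compared. Read depth was unknown.

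Neurofilaments are the main intermediate filaments of large myelinated axons. They are built from a light (Nefl), a medium (Nefm) and a heavy (Nefh) chain, of which the light chain forms the core and the heavy chain carries a long, strongly phosphorylated tail. Peripherin, from Prph, is the related filament protein of peripheral neurons, including autonomic ones. SOX10 is the transcription factor that specifies and maintains Schwann cells, the glia of peripheral nerve, and S100B is a calcium-binding protein abundant in those cells. The ventricle receives sympathetic and sensory fibres whose cell bodies lie outside it, so messenger RNA of neurons is expected there mainly from axons and cardiac ganglia, while Schwann cells lie within the tissue. Melanocytes also express Sox10, and adipocytes also express S100b.

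In the rn7 rat genome, Nefh was assembled as 1 transcript on chromosome 14, from 79830362 to 79840347 on the minus strand. Its 4 exons were 935, 200, 125 and 2583 bases long in transcript order. Nefl (chromosome 15, 42301920 to 42306116, plus strand) and Nefm (chromosome 15, 42360449 to 42365753, minus strand) lay close together, with 4 and 3 exons. Sox10 lay at 110725274 to 110735544 (minus strand) and Prph at 130218149 to 130222136 (plus strand), both on chromosome 7. S100b lay on chromosome 20 from 12372785 to 12381784 on the minus strand.

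Marker genes were read beside the tissue label, and their sums do not test which chamber was sampled. The log2 of the summed level of the 7 measured genes listed for ventricular myocytes was 20.27 to 20.45 in SHR and 20.35 to 20.59 in BN-Lx. That list held genes of myocytes in general, the troponin genes among them. The sum of 5 atrial markers was 8.38 to 9.20 in SHR and 8.64 to 8.96 in BN-Lx, ranges that overlapped. Single markers moved within these sums. The atrial Myl7 rose by 1.11 in SHR (limma adjusted p = 0.033) and Myl4 fell by 0.97 (adjusted p = 0.0106). The cardiac troponin genes Tnni3 and Tnnt2 fell by 0.47 (adjusted p = 0.0026) and 0.30 (adjusted p = 0.0247). Library medians in the assembled table lay between 3.99 and 4.73.

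Nefh separated the progenitors. Its levels were 7.15, 6.72, 6.97 and 7.05 in the 4 SHR libraries, against 3.22, 3.41, 3.82 and 3.29 in the 4 BN-Lx libraries. Every SHR library was above every BN-Lx library, and neither group spread by more than a small part of the distance between them. The mean was 6.97 ± 0.18 in SHR and 3.44 ± 0.27 in BN-Lx (SD, n = 4 each), a difference of 3.54 with a standard error of 0.20. The transcript of Nefh gave 7.09 ± 0.20 in SHR and 2.93 ± 0.40 in BN-Lx.

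Neither of the other neurofilament chains was separated in this way. Nefl had 3.18, 0.96, 0.60 and 2.11 in SHR, against 0.42, 0.44, 1.38 and -0.17 in BN-Lx. SHR replicate 1 was the highest of these libraries, and the groups overlapped (difference 1.19, standard error 0.54). Nefm, the medium chain, had 1.86, -0.42, 0.32 and -0.46 in SHR, against 0.63, 0.65, 1.35 and 0.72 in BN-Lx. Its difference was of the opposite sign, -0.51 with a standard error of 0.48, and the groups again overlapped. Both genes were near the bottom of the table, where 7.2% of all genes had a lower mean over the strains than Nefl and 2.5% had a lower mean than Nefm.

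Prph had 7.64, 7.08, 7.07 and 7.16 in SHR, against 7.14, 6.79, 6.98 and 6.86 in BN-Lx. The ranges overlapped by a narrow margin, and the difference was 0.29 (standard error 0.15). The measured transcripts of Prph did not repeat it, with differences of -0.05, 0.05 and -0.36 and overlapping groups in each. Sox10 had 6.67, 5.92, 6.23 and 6.74 in SHR, against 6.04, 5.65, 6.02 and 6.14 in BN-Lx, with overlapping ranges and a difference of 0.43 (standard error 0.20). S100b had 5.23, 5.14, 4.69 and 5.01 in SHR, against 4.55, 3.94, 3.99 and 4.26 in BN-Lx. Here the lowest SHR library was just above the highest BN-Lx library, and the difference was 0.84 (standard error 0.24).

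Of the 6 genes, 2 had ranges that did not overlap with SHR higher, Nefh and S100b, where 10.6% of all assembled genes did. The genes were picked on this contrast, so nothing is read from this count. Over 14 alternative fits the differences were 0.74 to 0.96 for S100b and 3.44 to 4.16 for Nefh. In bulk tissue, fewer cells of a type and less RNA per cell cannot be told apart.

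**Figure D1:**
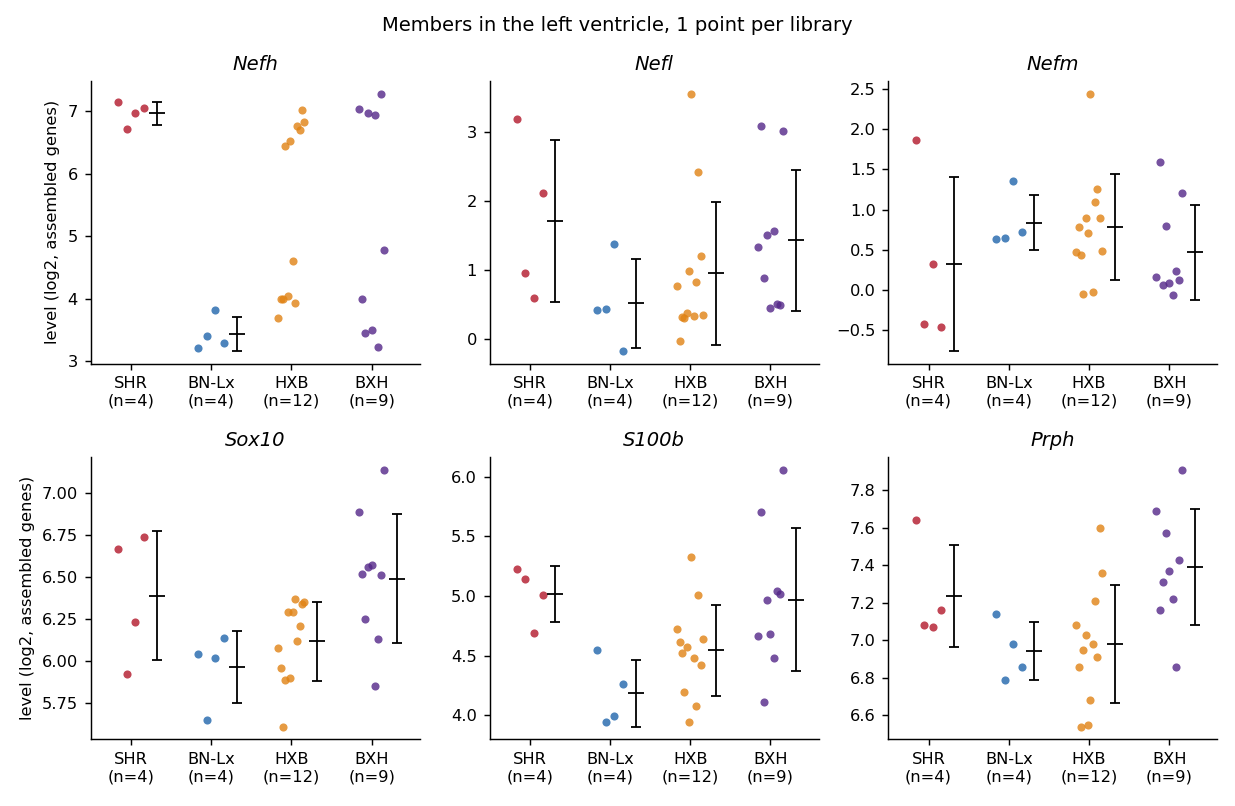
Log2 level in the assembled table (vertical axis) of each of the 6 genes in SHR, BN-Lx, HXB and BXH libraries, 1 point per library. Nefh lies between 6.72 and 7.15 in SHR and between 3.22 and 3.82 in BN-Lx, and the strains of both families fall near the one level or the other, while the remaining genes run without such a gap.

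SHR replicate number 4 was sequenced in batches 1, 2 and 3, which shows how far a level moved with the library. A later library of this number differed from the batch 1 library by -0.76 for Nefh, -0.87 for Sox10, -0.76 for S100b, -0.22 for Nefl, 0.92 for Nefm and -0.19 for Prph. For Sox10 this was more than the strain difference and for S100b it was close to it, whereas for Nefh the later value of 6.30 was still far above every BN-Lx library. What moved these values was not tested.

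Other genes of nerve were compared from lists of markers. Of 22 measured axon and neuron genes, 2 rose and 1 fell in SHR by limma at a Benjamini-Hochberg adjusted p of 0.05, where 7.38% of all assembled genes were called higher and 6.95% lower. The list had a median difference of 0.22 against 0.01 for all genes. Slc18a2, the vesicular monoamine transporter, was 3.62 ± 0.42 in SHR and 2.33 ± 0.22 in BN-Lx (adjusted p = 0.0159). Ngfr, a neurotrophin receptor of neurons and Schwann cells, rose by 0.67 (adjusted p = 0.0315), and Ddc, the aromatic amino acid decarboxylase of catecholamine synthesis, fell by 0.69 (adjusted p = 0.000128). Mapt, the axonal microtubule protein tau, differed by 0.26 and did not pass. The list's summed level was 12.32 to 12.42 in SHR and 12.44 to 12.53 in BN-Lx, so the sum was lower in SHR while the median difference was above 0. The sum rested mostly on Mapt, at 11.15 in SHR and 10.89 in BN-Lx, and Ddc, at 10.42 and 11.11. Without SHR replicate 1, recomputed for the lists after the data were seen, the list's median was -0.06, with 1 gene that rose and 2 that fell, and without SHR replicate 4 there were 0 and 1. The neuronal transmitter genes Th, Slc6a2, Chat and Slc18a3 had no named assembled gene and were not measured.

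Of 24 measured Schwann cell genes, 4 rose and 1 fell in SHR, where 7.38% of all assembled genes were called higher and 6.95% lower. The list median was 0.37, against 0.01 for all genes. Ncam1, a neural adhesion molecule, rose by 0.68 (adjusted p = 0.00105), Gfra3, the artemin receptor, by 0.53 (adjusted p = 0.0445), and Gpm6b, a myelin-related membrane protein, by 0.30 (adjusted p = 0.048). Pmp22, a protein of peripheral myelin, fell by 0.30 (adjusted p = 0.0412). Scn7a, a sodium channel gene that was among the most abundant of this list and was not called, differed by -0.03. The list's summed level was 12.52 to 12.88 in SHR and 12.62 to 12.83 in BN-Lx, and the ranges overlapped. The count of genes that rose fell to 1 of 24 after quantile normalization, without SHR replicate 1 and without SHR replicate 4.

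Markers of other cells that share Sox10 or S100b were read beside these values. The lists are short, and over all assembled genes 7.38% were called higher in SHR and 6.95% lower. Of 4 measured adipocyte genes, 1 rose, the lipase gene Lipe (difference 0.32), and the list median was -0.04. Pck1, which adipocytes use to make glycerol, was 4.86 ± 0.66 in SHR and 6.40 ± 1.20 in BN-Lx, a difference of -1.54 that did not pass (adjusted p = 0.0563). The sums were 10.67 to 10.82 in SHR and 10.41 to 10.66 in BN-Lx, and rested mostly on Lipe, at 10.56 in SHR and 10.23 in BN-Lx. The adipocyte-defining Adipoq and Plin1 had no named assembled gene. Of 5 melanocyte genes, 2 were measured and 0 were called (limma), with sums of 4.41 to 4.80 in SHR and 3.06 to 3.88 in BN-Lx. The 4 perineurial genes had 2 that rose, Slc2a1 by 0.72 and Itgb4 by 0.53, with sums of 12.37 to 12.41 in SHR and 12.04 to 12.23 in BN-Lx. These sums rested mostly on Tjp1, which was not called, at 12.19 in SHR and 11.98 in BN-Lx. Without SHR replicate 4, 0 adipocyte genes, 1 melanocyte gene and 1 perineurial gene rose. The part of these cells in the S100b and Sox10 values was not tested. Among 8 other intermediate filament genes, 2 rose (Nes, nestin, by 0.44 and Lmnb1, lamin B1, by 0.55) and 2 fell (Synm, synemin, by 0.86 and Krt8, keratin 8, by 0.84), while Des and Vim differed by -0.15 and 0.10.

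Across the recombinant inbred strains Nefh took 2 levels. In the RefSeq table the strains split at a gap of 1.57, the next widest gap being 0.20. The higher strains (10, of which 6 HXB and 4 BXH) had Nefh from 6.77 to 7.15 with a median of 6.99. They were HXB3, HXB5, HXB7, HXB20, HXB24, HXB31, BXH5, BXH8, BXH10 and BXH13. The lower strains (11, of which 6 HXB and 5 BXH) had Nefh from 4.49 to 5.19 with a median of 4.84. They were HXB1, HXB13, HXB17, HXB21, HXB25, HXB29, BXH2, BXH6, BXH9, BXH11 and BXH12. The medians differed by 2.15 in RefSeq and by 2.88 in the assembled table, in which the progenitors differed by 3.54. The same strains fell on the same sides in the assembled table, at 6.45 to 7.28 and at 3.23 to 4.78. The higher of these ranges spanned the batch 1 SHR libraries, and the lower began at the batch 1 BN-Lx libraries and reached above them. A later library of SHR replicate number 4 had 6.30 in the assembled table, and its later libraries had 6.47 and 6.73 in RefSeq. All of these lay below the lowest of the higher strains in the same table. Each family and each batch held strains of both levels, with 3 of the 6 strains of batch 2 at the higher level.

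Normal mixture models with 1 to 3 components were fitted to every gene over the 21 strains after centring within batch. Nefh had 2 components, with a gain in the Bayesian information criterion of 43.6 over 1 component, which ranked 3 among 19100 genes. More than 1 component was found for 15.6% of all RefSeq genes. Nefm also had 2 components in the RefSeq table (gain 6.7) but 1 in the assembled table, and Nefl had 2 in the assembled table (gain 9). Sox10, S100b and Prph had 1 component in both tables. The mixture was given as a description, without a test.

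The family of a strain stood for the direction of the cross and equally for the strain suffix, Ipcv in all HXB and Cub in all BXH strains. These cannot be told apart here. Family did not separate Nefh. It was 5.92 ± 1.03 in HXB and 5.78 ± 1.20 in BXH (SD, n = 12 and 9 strains), a difference of 0.13 with a standard error of 0.45 (limma, adjusted p = 0.843). Lowest, median and highest levels were 4.81, 5.96 and 7.02 in HXB, against 4.49, 5.19 and 7.15 in BXH. The families covered almost the same range.

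Of the 5 RefSeq genes, 0 were called between the families by limma, where 36.3% of all RefSeq genes were called, and Prph was the 1 gene with an unadjusted p under 0.05. Prph had lowest, median and highest levels of 6.72, 7.14 and 7.50 in HXB, against 6.98, 7.30 and 7.69 in BXH, and its difference was -0.24 (standard error 0.10, adjusted p = 0.0668). Sox10 had 5.98, 6.36 and 6.63 in HXB, against 6.13, 6.60 and 6.98 in BXH, a difference of -0.18 (standard error 0.10, adjusted p = 0.151). Both were shifted toward lower values in HXB, with wide overlap. In the assembled table both passed, Prph at -0.42 (adjusted p = 0.0223) and Sox10 at -0.38 (adjusted p = 0.0403), and there the library medians were 4.16 to 4.59 in HXB and 3.99 to 4.44 in BXH. The part of those medians in the result was not tested. S100b had 4.51, 4.84 and 5.29 in HXB, against 4.39, 4.96 and 5.74 in BXH (adjusted p = 0.292), and Nefm had 0.95, 1.05 and 1.57 in HXB, against 0.92, 0.95 and 1.20 in BXH (adjusted p = 0.249). Nefl, in the assembled table, had -0.03, 0.58 and 3.55 in HXB, against 0.45, 1.34 and 3.09 in BXH (difference -0.46, adjusted p = 0.427).

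Whether other genes followed Nefh over the strains was examined by fitting each gene on the level of Nefh, with batch as a term. A slope of 1 means a change of 1 log2 unit for each log2 unit of Nefh. The slopes were -0.016 for Nefm (standard error 0.029), 0.009 for Sox10 (0.049), -0.081 for S100b (0.066) and 0.087 for Prph (0.051), and 0.050 for Nefl in the assembled table (0.143). The adjusted p was 1 for each of them, and 0 of these 5 genes was called by limma, with 0 also at an unadjusted p under 0.05. Over 31 alternative fits the slopes of the RefSeq members ran from -0.12 to 0.11, with adjusted p from 0.999 to 1.

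**Figure D2:**
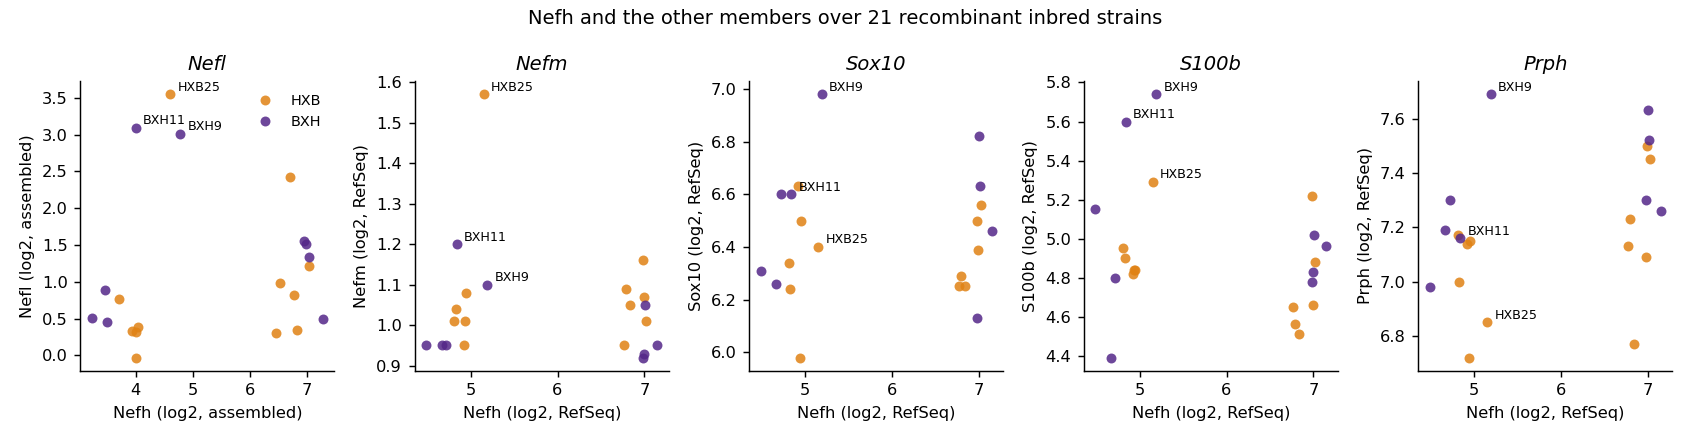
Level of Nefl, Nefm, Sox10, S100b and Prph (vertical axes, log2) against the level of Nefh (horizontal axes, log2), 1 point per recombinant inbred strain, with Nefl in the assembled table and the others in RefSeq. The 10 strains at the higher Nefh level and the 11 at the lower one overlap in every other gene, and the highest values of Nefl (3.55), Nefm (1.57) and S100b (5.74) lie among the lower strains.

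The median slope on Nefh was -0.01 for the axon and neuron list and 0.01 for the Schwann cell list, against 0.0 for all genes. Of 24 axon and neuron genes and 27 Schwann cell genes of the RefSeq table, 0 were called on Nefh. Over all 19099 other RefSeq genes, 1 was called with a positive slope (0.00524%) and 0 with a negative one, with 321 genes at an unadjusted p under 0.05. With so few genes called at all, a count of 0 says nothing particular about either list.

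Since the strains form separate sets by Nefh, the correlations of Nefh with the other 5 genes were taken within each set, 10 relations in all, with unadjusted permutation p values and levels centred within batch, since each set held only 3 strains of batch 2. Among the 10 higher strains, Nefh had r = 0.66 with S100b (permutation p = 0.0414, rho = 0.55 with p = 0.104), and r was 0.55 without the 2 strains farthest from the median. It had r = 0.58 with Prph (permutation p = 0.0851, rho = 0.56 with p = 0.0964, r = 0.57 without 2) and r = 0.51 with Sox10 (permutation p = 0.135, rho = 0.45 with p = 0.191, r = 0.34 without 2). With Nefl r was 0.05 (permutation p = 0.895, rho = 0.31 with p = 0.386, r = 0.07 without 2) and with Nefm -0.25 (permutation p = 0.474, rho = -0.38 with p = 0.279, r = -0.51 without 2). Nefh itself ran only from 6.77 to 7.15 among these strains, so all of these relations concern small steps.

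Among the 11 lower strains, Nefh had r = 0.74 with Nefm (permutation p = 0.00903, rho = 0.68 with p = 0.025, r = 0.69 without 2) and r = 0.66 with Nefl (permutation p = 0.0348, rho = 0.45 with p = 0.175, r = 0.52 without 2). The relation with Nefl turned round to r = -0.83 when HXB25, BXH11 and BXH9 were left out (n = 8), while that with Nefm was 0.74 there. With S100b r was 0.50 (permutation p = 0.115, rho = 0.39 with p = 0.237, r = 0.42 without 2) and with Sox10 0.39 (permutation p = 0.233, rho = 0.32 with p = 0.342, r = 0.08 without 2). With Prph r was 0.14 (permutation p = 0.698) and rho was -0.40 (p = 0.225), of the opposite sign, and r was -0.57 without 2. None of the 10 relations had a p below 0.05 for both r and rho except that with Nefm among the lower strains.

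Genes whose pattern was most like that of Nefh were ranked by Spearman's rho over all 21 strains after centring within batch, as a description. The 10 were Ntn3 (-0.78), a netrin, LOC100911506 (0.74), Ccdc96 (0.74), a coiled-coil protein, Sqle (0.73), an enzyme of cholesterol synthesis, LOC103694288 (-0.70), Hopx (-0.70), Mcpt2 (0.68), a mast cell protease, Kctd8 (0.68), LOC498368 (0.67) and LOC108352432 (-0.66). None of them was on the axon or Schwann cell lists. Ccdc96 was the 1 gene called on Nefh, with a slope of 0.36 (standard error 0.05, adjusted p = 0.00594), and it was not called with batch 3 strains alone or with Nefh as a rank.

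Hopx, Kctd8 and LOC498368 lay on chromosome 14 with Nefh, at 48.75, 40.81 and 35.16 Mb from it, and Sqle lay on chromosome 7. The other 6, Ccdc96 among them, matched no named assembled gene and were not placed on the genome here. Hopx, a homeodomain protein of the heart that acts without binding DNA, was 9.74 in SHR and 11.53 in BN-Lx, and fell by 1.78 (standard error 0.09, adjusted p = 9.92e-08). Kctd8, an auxiliary subunit of the GABA B receptor, was 6.39 in SHR and 5.88 in BN-Lx (difference 0.51, adjusted p = 0.0497). In the assembled table, 1 gene was called on Nefh, with a negative slope. It was named Mtmr3, a name carried by 9 assembled genes, and lay 0.39 Mb from Nefh (chromosome 14, 79430506 to 79444418), with a slope of -0.44 (standard error 0.05, adjusted p = 0.00183) and mean levels of 7.15 in SHR and 8.79 in BN-Lx. The RefSeq gene Mtmr3, a myotubularin-related phosphatase gene, had a slope of 0.02 (standard error 0.02).

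The genes within 250 kb of Nefh showed no matching difference. Within 250 kb there were 19 assembled genes, 11 of them named. Of these 19, 1 was called between the progenitors by limma, where 7.38% of all assembled genes were called higher in SHR and 6.95% lower. It was Emid1, an extracellular matrix protein gene 160139 bases away, at 6.63 ± 0.13 in SHR and 5.90 ± 0.08 in BN-Lx (difference 0.73, standard error 0.14, adjusted p = 0.00436). The differences of the 19 ran from -0.27 to 0.85, none near the 3.54 of Nefh. The nearest, an unnamed gene 6137 bases away, differed by 0.34 (standard error 0.30, adjusted p = 0.496). Nf2, the gene of the tumour suppressor merlin that Schwann cells depend on, differed by 0.12. Over the strains, the 11 RefSeq genes of this window had slopes on Nefh from -0.04 to 0.05, with 0 called by limma and a smallest unadjusted p of 0.251. Within 1 Mb, 30 RefSeq genes had a median absolute rho with Nefh of 0.13 (highest 0.44), against 0.10 (highest 0.73) over 9824 genes of other chromosomes. Within 5 Mb, 93 genes had a median of 0.13 and a highest of 0.62. Symbols assembled at more than 1 place, such as Mtmr3, were left out of these figures. The assembled gene named Mtmr3 that was called on Nefh lay 0.39 Mb away, outside the 250 kb window.

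**Figure D3:**
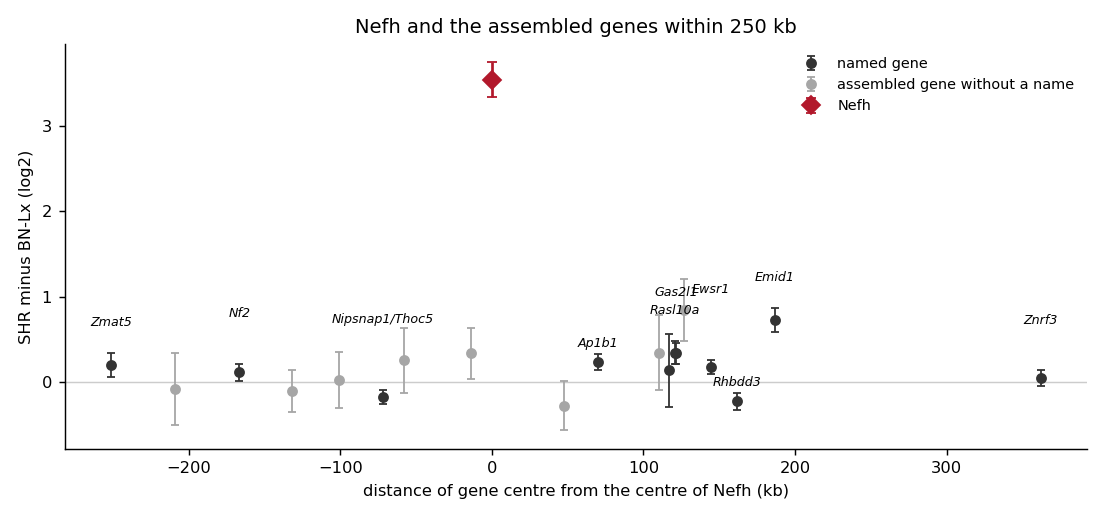
SHR minus BN-Lx difference (log2, with standard error) of Nefh and of the 19 assembled genes within 250 kb of it, by distance of the gene centres. Nefh stands at 3.54 and the other genes at -0.27 to 0.85, with Emid1 at 0.73.

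Among the remaining genes, Sox10 and Prph varied together over the strains. Prph had a slope of 0.80 on Sox10 (standard error 0.19, limma adjusted p = 0.0253), and Sox10 a slope of 0.63 on Prph (standard error 0.16, adjusted p = 0.0308). Over the 21 strains r was 0.71 (permutation p = 0.00035) and rho was 0.51 (p = 0.0198), with r = 0.49 without the 2 strains farthest from the median, 0.58 within batch 2 and 0.76 within batch 3. BXH9 was highest in both genes, at 6.98 for Sox10 and 7.69 for Prph, and HXB17 was lowest, at 5.98 and 6.72. The calls were made in 23 of 31 alternative fits each. They were lost when BXH9, BXH10 or HXB17 was left out, without the 3 strains of highest Nefl, and with family as a term (adjusted p = 0.0789 for Prph on Sox10 and 0.356 for Sox10 on Prph). They were also lost by limma with batch 3 strains alone (adjusted p = 0.176 for Prph on Sox10 and 0.102 for Sox10 on Prph). With Sox10 as a rank, Prph did not pass (limma adjusted p = 0.0516). S100b had a slope of 0.80 on Sox10 (standard error 0.27, adjusted p = 0.056) and did not pass, but passed in the assembled table (slope 0.91, adjusted p = 0.0185). Sox10 and S100b had r = 0.55 over the 21 strains (permutation p = 0.0106, rho = 0.49 with p = 0.0249, r = 0.49 without 2), with r = 0.06 within batch 2 and 0.68 within batch 3. S100b and Prph had r = 0.16 (permutation p = 0.481).

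Many other genes followed Sox10 and Prph too. On Sox10, 5.37% of RefSeq genes were called with a positive slope and 6.65% with a negative one, and on Prph 6.2% and 9.29%. Among 27 Schwann cell genes, 4 were called on Sox10 and all 4 were positive: Gfra3 (slope 0.55, adjusted p = 0.0301), Foxd3, a neural crest transcription factor (0.71, adjusted p = 0.0317), Cnp, a myelin enzyme (0.57, adjusted p = 0.034), and L1cam, an adhesion molecule of axons and Schwann cells (0.49, adjusted p = 0.0478). Of 24 axon and neuron genes, 3 were called, Rtn1, Ret and Ngfr. On Prph, 2 Schwann cell genes, Cnp and Gfra3, and 2 axon genes, Rtn1 and Ret, were called. The genes most like Sox10 and Prph were on neither list. They were Ippk (rho -0.84), Mrgprf (0.83) and Zfp319 (0.82) for Sox10, and Cog3 (-0.88), Tnfrsf21 (0.86) and Naglu (0.85) for Prph. These counts rested on single strains, with 2295 genes called on Sox10 and 2960 on Prph but 0 on each when BXH10 or HXB17 was left out, 2 and 1 without BXH9, and 13 and 0 with family as a term.

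Nefl, Nefm and S100b shared some of their highest strains. Nefl was highest in HXB25 (3.55), BXH11 (3.09) and BXH9 (3.01), and the next strain, HXB31, had 2.42. The same strains were the highest 3 in S100b of the RefSeq table, at 5.29 in HXB25, 5.60 in BXH11 and 5.74 in BXH9, and HXB25 (1.57) and BXH11 (1.20) were the highest in Nefm. HXB31 came next in S100b (5.22) and had 1.16 in Nefm, above BXH9 (1.10), but it was a strain of higher Nefh (6.98). HXB25, BXH11 and BXH9 belonged to the 11 strains of lower Nefh, where BXH9 (5.19) and HXB25 (5.15) were the highest in Nefh and BXH11 had 4.84. Without these strains, a choice made after the data were seen, Nefl had r = 0.35 with Nefm (n = 18, permutation p = 0.161, rho = 0.25) and r = 0.18 with S100b (permutation p = 0.467, rho = 0.07), and S100b had r = 0.31 with Sox10 (permutation p = 0.209). That choice also narrowed the ranges of Nefl and S100b themselves. The slope of Nefm on Nefl was 0.46 (standard error 0.10, adjusted p = 0.0718) that of S100b on Nefl was 0.35 (standard error 0.09, adjusted p = 0.213) and that of S100b on Nefm was 1.14 (standard error 0.46, adjusted p = 0.79) over all strains, and none of these passed.

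Few genes were called on Nefl, Nefm and S100b. Of the axon and neuron list, 2 of 22 genes were called on Nefl, 4 of 24 on Nefm and 0 of 24 on S100b by limma, and of the Schwann cell list 1 of 24, 0 of 27 and 1 of 27. The genes named next were picked from those called, and no enrichment was tested. On Nefl, 0.089% of the assembled genes were called with a positive slope, 41 genes. They included Aqp4, the water channel of astrocytes (slope 1.00, standard error 0.11, adjusted p = 0.000454), Kcnj10, a glial potassium channel (0.70, adjusted p = 0.000685), Grin1, a glutamate receptor subunit, Snap25 and Syn1, proteins of the nerve terminal (0.77, adjusted p = 0.00771, and 0.59, adjusted p = 0.0111), and Mbp, the myelin basic protein (0.28, adjusted p = 0.0238). On Nefm, 0.335% of RefSeq genes were called with a positive slope (64 genes), among them the synaptic vesicle gene Syt1 (2.33, adjusted p = 0.00202) and Snap25 (2.56, adjusted p = 0.00861). On S100b, 0.0419% were called (8 genes), among them the glutamate receptor gene Grin2b (0.97, adjusted p = 0.0306) and Gfap, the filament protein of astrocytes and some Schwann cells (0.96, adjusted p = 0.0419). Without the 3 strains of highest Nefl, 0 genes were called on Nefl, Nefm or S100b by limma. Leaving them out lowered the highest level from 3.55 to 2.42 for Nefl and from 5.74 to 5.22 for S100b. With the range narrowed in this way, the loss of calls does not show what they rested on. Single strains decided some of these counts, since 0 genes were called on Nefm without HXB25, and 0 on S100b without BXH9, BXH11, HXB5 or HXB29. Over all 21 strains, the genes at an unadjusted p under 0.05 were 4611 on Nefl, 997 on Nefm and 793 on S100b.

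**Figure D4:**
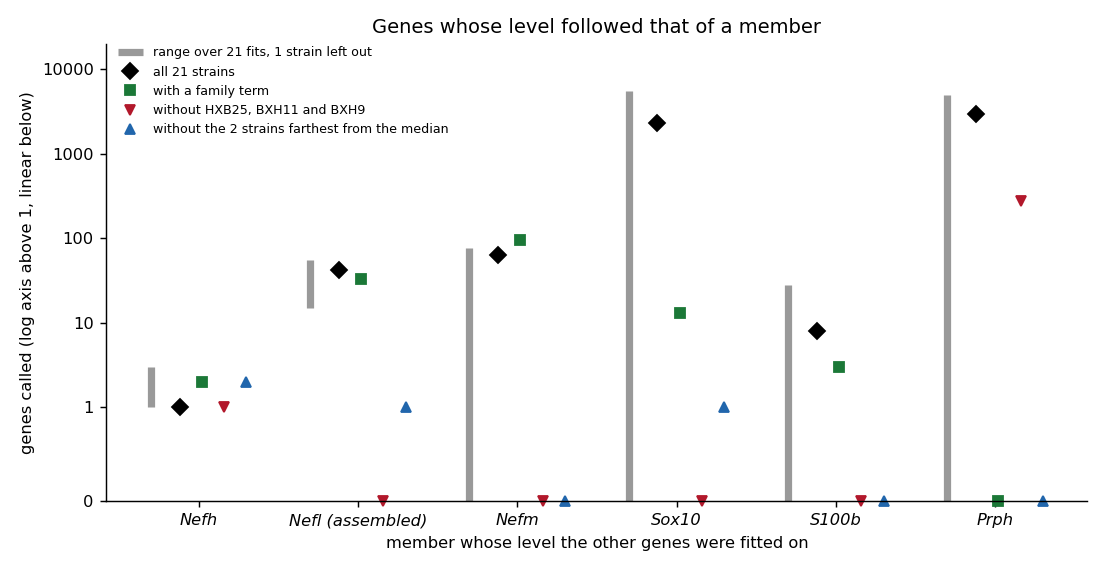
Number of genes called on each of the 6 genes (vertical axis, log scale above 1 and linear below), with all 21 strains, with family as a term, without the 3 strains of highest Nefl and without the 2 strains farthest from the median, and as grey bars the range when 1 strain was left out. Nefh has 1 to 3 genes when 1 strain is left out, whereas the ranges of Sox10 and Prph reach from 0 to 5521 and from 0 to 4979.

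The levels behind this were read for genes picked after their values were seen. Snap25 was 5.72 in HXB25, 4.75 in BXH11 and 4.74 in BXH9, against a lowest, median and highest level of 1.96, 3.09 and 4.59 in the other 18 strains. Grin2b was 4.93, 5.25 and 5.47 in the same strains, against 2.76, 3.48 and 4.33 in the others. Slc12a5, the chloride transporter of central neurons, was 4.19, 4.36 and 4.65, against 2.21, 2.89 and 4.11. In these 3 genes each of the named strains stood above every other strain. Gfap was less clear, at 3.47, 4.71 and 5.22, against 2.00, 2.82 and 4.23, with HXB25 within the range of the others. Aqp4 was 4.17, 3.95 and 3.32, against 0.21, 1.38 and 3.82. The highest of the other 18 strains in Snap25, Grin2b and Aqp4 was HXB31, a strain of higher Nefh.

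Among the progenitors, SHR replicate 1, the library highest in Nefl and Nefm, had Snap25 at 4.99, against 2.73, 2.18 and 3.76 in the other SHR libraries, and Gfap at 4.12, against 2.82, 2.77 and 3.71. Kcnj10 did not share this, at 0.41, against 1.75, 1.92 and 2.60, and Grin2b was 4.23 there but 4.49 in SHR replicate 4. High levels were not limited to this library, since Snap25 was 4.08 and 4.41 and Aqp4 was 2.33 and 2.71 in BN-Lx replicates 1 and 3. The part of cells that carry these genes in the Nefl, Nefm and S100b values was not tested. None of these genes was among the 10 most like Nefh.

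**Figure D5:**
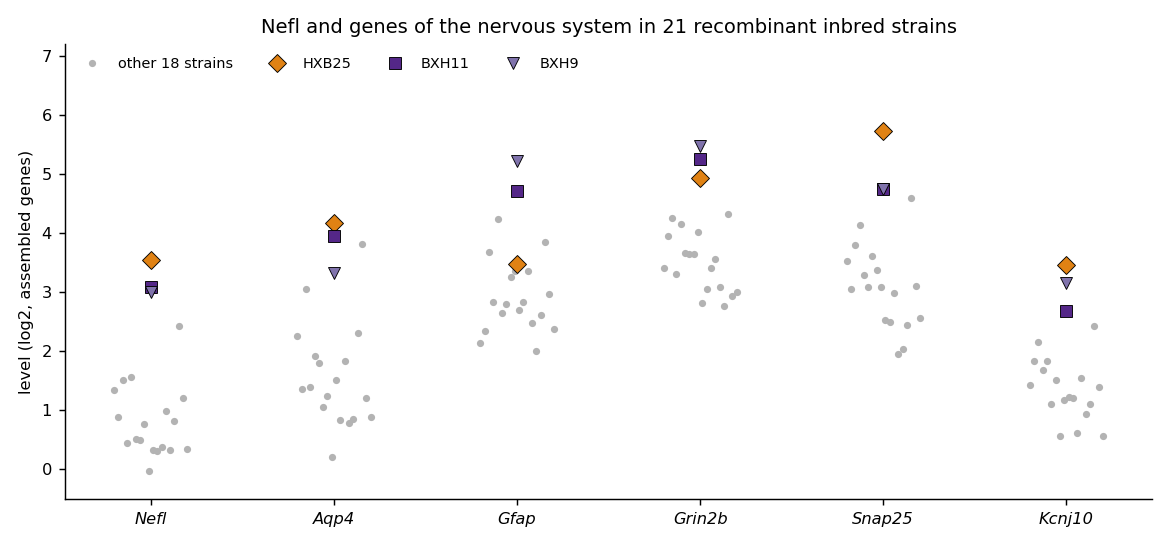
Log2 level in the assembled table of Nefl and of genes of the nervous system in the 21 strains, with HXB25, BXH11 and BXH9 marked and the other 18 strains in grey. The marked strains lie at the top for Nefl (3.01 to 3.55), and for Snap25 at 4.74 to 5.72 against at most 4.59 in the other strains.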

How the data were processed

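Left ventricle RNA without ribosomal RNA was sequenced from stranded libraries. For genome build rn7, the submitters list RSEM 1.3.1, StringTie 1.3.5, DESeq2 (no version), HISAT2 2.1.0, cutadapt 1.9.1 and Bowtie2 2.3.4.3 among their processing tools, with roles not given in the sources used here. Log2 levels deposited by the authors, per gene and per transcript, were used as they stood. Their transformation and read depth are not given, so no counting error could be attached, and the precision rests on the number of libraries. Spike-in rows (70 and 69 in the assembled and RefSeq tables) were left out.

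Levels were fitted with limma 3.58.1 (R 4.3.3, intensity trend, two-sided, Benjamini-Hochberg over all features, threshold 0.05), without a filter on low values. Progenitors were 4 SHR and 4 BN-Lx libraries of batch 1, and the families were 12 HXB and 9 BXH strains with batch as a term. Slopes were fitted on the level of each gene in turn, and for Nefl in the assembled table. Modes used mclust 6.1.1, and correlations used 100000 permutations (scipy 1.17.1) after centring within batch. The limma fits of SHR minus BN-Lx, HXB minus BXH and the slopes on Nefh and Sox10 were also run on simulated data with known answers. In the simulated progenitor fit, 16% of differences of 0.5 and 38% of differences of 1 were called, so many differences of that size would go uncalled. The design text calls replicates of a strain biological, but the sample labels name no animals, so p-values measure only the spread between libraries, which may be technical.

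The 6 genes and the marker lists were chosen with earlier results of these data known. Named beside them were the 10 genes most like Nefh and the 3 most like each of the others by rho, every gene within 250 kb of Nefh, and, from each list, up to 4 called genes of smallest p and the 2 most abundant uncalled ones. Some genes that this rule names are not reported here. Genes of the nervous system outside the lists were picked after their values were seen. Alternatives were other normalizations, variance models, tables, filters, batch terms, and leaving out each library.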

Additional observations from a re-analysis of the deposited data

Results flagged for a closer look

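In 23 groups of 4 to 10 libraries tested for a library far from the rest, 2 were found, and chance gives about 1 in 20. Nefm in BN-Lx replicate 3 was 1.35, against 0.72 for the next library, a gap of 0.88 of the group's range. Prph in SHR replicate 1 was 7.64, against 7.16 for the next, a gap of 0.84 of the range. SHR replicate 1 was also the highest SHR library for Nefl (3.18) and Nefm (1.86).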

How the results depend on the processing

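The difference of Nefh between SHR and BN-Lx, on which the gene was chosen, was 3.44 to 4.16 over 14 alternatives, and 0 of the slopes of other members on Nefh were called in any of their alternatives. No called value changed sign. Counts of genes called over strains moved most. With batch 3 strains alone they were 0 on Nefh, 1 on Nefm, 0 on Sox10, 21 on S100b, 0 on Prph and 10 on Nefl, against 1, 64, 2295, 8, 2960 and 42. With the level as a rank they were 0 on Nefh, 3 on Nefm, 296 on Sox10, 0 on S100b, 4859 on Prph and 5 on Nefl. Without the 2 strains farthest from the median they were 2, 0, 1, 0, 0 and 1 in that order. In the assembled table they were 0 on Nefm, 11971 on Sox10, 0 on S100b and 13675 on Prph, and 12871 genes were called between HXB and BXH, against 6940 in RefSeq. The version 6 Ensembl table gave 28 on Nefm, 3 on S100b and 0 on Prph. Genes with a mean above the median gave 0 on Nefh, Nefm and S100b and 1 on Nefl. Quantile normalization gave 4198 on Sox10 and 15 on S100b, and omitting the intensity trend 35 on Nefm and 1 on S100b.

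With family as a term, chosen after the data were seen, 2 genes were called on Nefh, 13 on Sox10, 3 on S100b and 0 on Prph. Without the 3 strains of highest Nefl, also chosen afterwards, 0 were called on Nefm, Sox10, S100b and Nefl and 276 on Prph. This choice narrowed the range of Nefl itself. Leaving out 1 strain at a time gave 1 to 3 on Nefh, 0 to 76 on Nefm (0 without HXB25), 0 to 5521 on Sox10, 0 to 28 on S100b (0 without BXH11), 0 to 4979 on Prph and 15 to 55 on Nefl. The causes were not tested. Leaving out 1 progenitor library gave 4377 (without SHR replicate 4) to 6114 genes, against 6603. Replicate numbers did not pair the progenitor libraries (same-number correlations 0.19, -0.38, -0.17 and 0.15). With the replicate number as a block 5437 genes were called, Nefh differed by 3.54 and S100b by 0.84. The Nefm mixture had 1 component in the assembled table. Low levels of Nefl and Nefm, unknown depth and 1 library per strain limit what can be said of them.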
